A study of Mus musculus with 6 samples.

Results

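The genes described here are 10 transcripts by which damage to the kidney tubule and loss of the mature tubule cell state are commonly followed: Havcr1, Lcn2, Krt8, Krt18, Spp1, Clu, Vcam1, Sox9, Fgb and Fgg. They were taken by symbol, and all 10 were found among the 34714 genes of the table. RNA of 6 mouse kidney libraries was sequenced, 3 labelled Hspa8 knockout and 3 wild-type, all from animals aged 8 weeks on normal chow, and the labels name no other treatment. The wild-type titles carry the letters C57 and the knockout titles name no strain. The source animals listed for the study include an Hspa8-floxed line on C57BL/6J and a Cdh16-Cre line, whose promoter is active in kidney tubule epithelium. The labels give neither the Cre nor the floxed alleles of a sample and do not say that each library came from its own animal, so p-values here measure only the spread between libraries, which may be technical.

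When a tubule cell is injured it loses polarity, switches off transport genes and takes up a repair program with features of an embryonic epithelium. Havcr1 encodes KIM-1, a receptor for phosphatidylserine through which injured proximal tubule cells engulf debris and whose shed ectodomain is a urinary injury marker. Lcn2 encodes NGAL, an iron-siderophore carrier released by stressed distal nephron. Krt8 and Krt18 are partner keratins that form the intermediate filaments of simple epithelia. Spp1 encodes osteopontin, a secreted integrin ligand made by thick limb and injured tubule, and Clu encodes clusterin, an extracellular chaperone. Vcam1 encodes an adhesion molecule for leukocyte integrins that marks activated endothelium and tubule cells that failed to repair, Sox9 a transcription factor of nephron progenitors and repairing tubule, and Fgb and Fgg the beta and gamma chains of fibrinogen, an acute-phase protein that injured tubule also makes.

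None of these genes passed a test of knockout against wild-type kidney over all genes. Neither did any other tested gene, Hspa8 included. Fgg was the member whose 3 knockout values all lay below its 3 wild-type values, and the other 9 overlapped. Lcn2, Havcr1 and Krt18 spanned 6.21-fold, 3.49-fold and 2.06-fold over the 6 libraries, and each was highest in knockout replicate 2 and next highest in wild-type replicate 3. The most abundant members, Spp1, Clu and Krt8, spanned 1.39-fold, 1.39-fold and 1.19-fold.

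Levels are given as the deposited FPKM, which count fragments per kilobase of a transcript relative to all mapped fragments of the library. FPKM keep no read totals, so depth is unknown and low values are the least precise. Where a group has 3 values they stand in the order of replicates 1, 2 and 3. Summed over genes, the libraries held 381586 to 417123 FPKM. Hspa8 itself had 650, 699 and 781 FPKM in the knockout libraries, against 1058, 1092 and 1318 FPKM in the wild-type libraries, so that the knockout mean was 0.614 of the wild-type mean in whole tissue. All its knockout values lay below its wild-type values, as in 8.57% of tested genes. The log2 fold change of Hspa8 was -0.70, and it did not pass over all genes (limma adjusted p = 0.866). Knockout replicate 2 and wild-type replicate 3 had the highest coordinates along the first principal component of the tested genes, which held 47.5% of the variance. Their coordinates were 10.6 and 23.0, against -10.1 and -13.4 in knockout replicates 1 and 3 and -10.4 and 0.21 in wild-type replicates 1 and 2. Whole kidney is a mixture, and fewer cells of a type cannot be told apart from less of a transcript per cell.

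The sequences before the gene starts are shown for 5 members: Lcn2, Havcr1 and Krt18, which are 3 of the 5 members highest in the same pair of libraries, and the 2 fibrinogen genes. They run from 250 bases before to 50 bases after an annotated start and come from RefSeq on GRCm38.p6, in a set of windows that holds 7 of the 10 members. Havcr1 has 3 windows in that set, of which the first along the chromosome is given, and its annotated gene begins farther upstream. Capitals mark matches on either strand to a STAT element (TTCNNNGAA), an AP-1 element (TGANTCA), the NF-kB element, a TATA box (TATAAA) or the element of acute-phase genes known as IL-6 type II (CTGGGAA).
Lcn2, chr2:32387690-32387989, minus strand: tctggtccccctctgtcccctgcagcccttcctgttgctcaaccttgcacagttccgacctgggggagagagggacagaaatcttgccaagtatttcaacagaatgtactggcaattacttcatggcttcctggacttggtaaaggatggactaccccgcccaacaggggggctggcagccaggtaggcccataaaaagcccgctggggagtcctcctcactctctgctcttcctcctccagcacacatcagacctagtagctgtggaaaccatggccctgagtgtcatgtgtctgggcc
Havcr1, chr11:46739973-46740272, plus strand: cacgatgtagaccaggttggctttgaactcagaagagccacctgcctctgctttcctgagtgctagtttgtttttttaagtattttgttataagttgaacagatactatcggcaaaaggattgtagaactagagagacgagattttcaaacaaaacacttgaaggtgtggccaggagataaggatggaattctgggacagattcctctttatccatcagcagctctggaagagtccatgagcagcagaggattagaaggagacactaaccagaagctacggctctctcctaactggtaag
Krt18, chr15:102027966-102028265, plus strand: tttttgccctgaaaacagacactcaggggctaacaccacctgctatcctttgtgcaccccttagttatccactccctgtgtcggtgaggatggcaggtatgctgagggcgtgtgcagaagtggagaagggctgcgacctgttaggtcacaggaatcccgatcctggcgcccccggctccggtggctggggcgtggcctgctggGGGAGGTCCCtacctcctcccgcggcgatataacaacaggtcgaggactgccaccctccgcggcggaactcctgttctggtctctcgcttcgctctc
Fgb, chr3:83049814-83050113, minus strand: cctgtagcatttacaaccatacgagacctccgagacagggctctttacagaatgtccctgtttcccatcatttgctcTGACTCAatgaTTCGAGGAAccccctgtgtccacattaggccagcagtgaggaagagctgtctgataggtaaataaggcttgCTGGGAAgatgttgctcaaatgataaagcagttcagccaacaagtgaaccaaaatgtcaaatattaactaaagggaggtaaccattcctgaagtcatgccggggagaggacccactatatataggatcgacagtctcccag
Fgg, chr3:83007474-83007773, plus strand: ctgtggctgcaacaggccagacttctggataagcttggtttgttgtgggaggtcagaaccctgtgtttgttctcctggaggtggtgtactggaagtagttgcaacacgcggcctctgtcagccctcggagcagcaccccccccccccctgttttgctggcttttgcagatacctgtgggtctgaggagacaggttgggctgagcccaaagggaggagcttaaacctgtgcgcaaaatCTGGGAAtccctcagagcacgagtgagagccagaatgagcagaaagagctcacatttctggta
Lcn2 and Havcr1 held no match to any of these letters in the window shown, while the last of the 3 Havcr1 windows, not shown, held an AP-1 match 10 bases after its start. Krt18 held the NF-kB element 47 bases before its start, which 8.46% of 32851 promoter windows hold. The CTGGGAA element lay 91 bases before the start of Fgb and 13 bases before that of Fgg and is in 11.1% of windows. Fgb also had an AP-1 match 173 bases and a STAT match 162 bases before its start, elements present in 7.81% and 8.3% of windows, and TATAAA, present in 13.6%, was in none of the 5 windows shown. Among the members not shown, TATAAA was in the window of Krt8, 1 base before its start, and in 1 of the 2 windows of Spp1, 211 bases before its start. Both genes were also highest in that pair of libraries. These matches are letters only, and no binding was measured.

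By mean level per length over the 6 libraries the order was Spp1 (332 FPKM), Clu (116), Krt8 (51.4), Krt18 (6.96), Fgg (4.02), Vcam1 (2.43), Lcn2 (1.63), Havcr1 (0.869), Fgb (0.790) and Sox9 (0.142). Spp1 ranked 131 of all 34714 genes and Clu 579. The ranges over libraries of Spp1, Clu and Krt8 were apart from each other and from the rest, as was that of Sox9 at the low end. From Krt18 down to Fgb each gene overlapped in range with the next. The 7 members with a mean of at least 1 FPKM were tested, and Havcr1, Fgb and Sox9 fell below that limit.

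**Figure D1:**
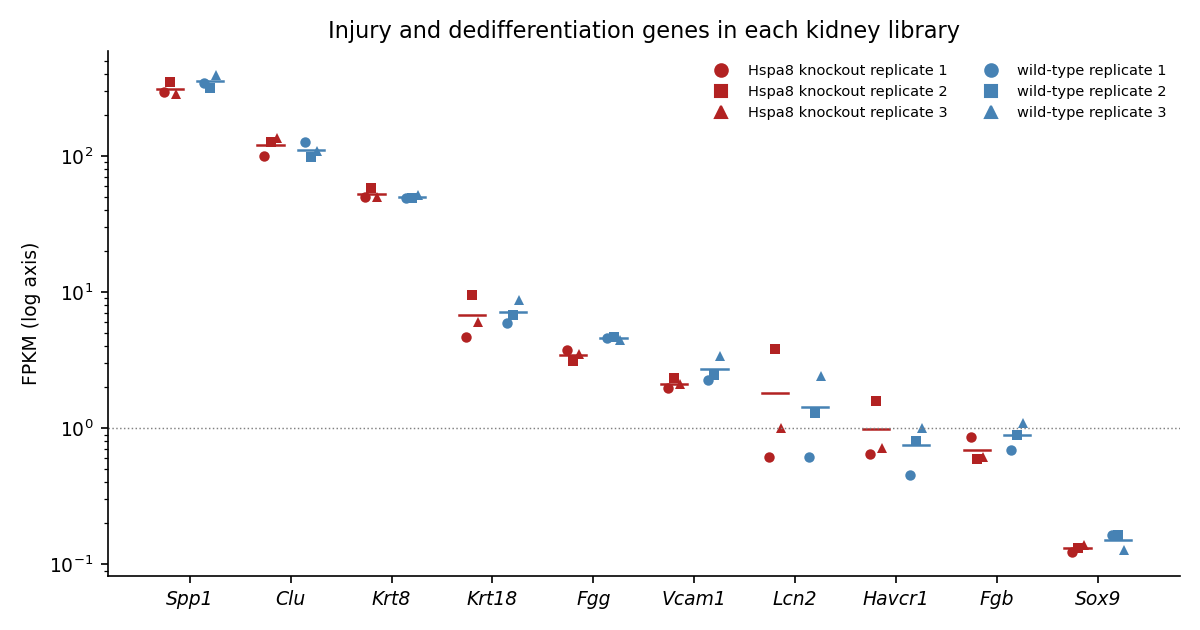
FPKM of the 10 genes on a log axis, with knockout libraries (red) left of wild-type libraries (blue), a symbol for each replicate number, bars at the group means and a dotted line at the test limit of 1 FPKM. Fgg is the gene whose 3 knockout points all lie under its wild-type points, and Lcn2 and Havcr1 show the widest spread within a group.

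Havcr1, the KIM-1 gene, ranked 12442 of the 34714 genes by mean level. It had 0.648, 1.58 and 0.715 FPKM in the knockout libraries, against 0.452, 0.813 and 1.01 FPKM in the wild-type libraries. Knockout replicate 2 was the highest and wild-type replicate 1 the lowest, and the other knockout libraries lay inside the wild-type range. The mean was 0.980 ± 0.518 FPKM in knockout and 0.759 ± 0.284 FPKM in wild-type kidney (SD, n = 3 each), and an exact two-sided permutation test of mean log2(FPKM + 1) gave p = 0.7, where 3 against 3 cannot go below 0.1.

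Lcn2, the NGAL gene, had the widest range of the members, 6.21-fold from its lowest to its highest library. It had 0.617, 3.82 and 1.01 FPKM in the knockout libraries, against 0.615, 1.30 and 2.41 FPKM in the wild-type libraries. The order of the 6 libraries was the same as for Havcr1, with wild-type replicate 1 lowest, then knockout replicates 1 and 3, wild-type replicates 2 and 3, and knockout replicate 2 highest. The difference was 0.10 on the log2(FPKM + 1) scale with a standard error of 0.412 and a 95% interval of -0.84 to 1.05 (limma, adjusted p = 0.998 over 12174 genes). Its standard deviation within groups ranked 59 of the 12174 tested genes. The sign followed single libraries, being -0.37 without knockout replicate 2 and -0.16 without wild-type replicate 1.

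Spp1, the osteopontin gene, was among the abundant transcripts of every library. It had 296, 351 and 285 FPKM in the knockout libraries, against 346, 317 and 396 FPKM in the wild-type libraries. A pair of knockout libraries lay below all wild-type values and knockout replicate 2 lay among them. The difference was -0.18 on the log2 scale with a standard error of 0.122 and an interval of -0.46 to 0.10 (limma adjusted p = 0.998).

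Clu, the clusterin gene, did not follow the same libraries as Lcn2 and Spp1. It had 99.95, 126 and 135 FPKM in the knockout libraries, against 127, 97.5 and 109 FPKM in the wild-type libraries. The highest value was that of knockout replicate 3 and the lowest that of wild-type replicate 2, and the groups overlapped. The difference was 0.11 on the log2 scale with an interval of -0.22 to 0.44 (limma adjusted p = 0.998).

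The keratin partners behaved unequally. Krt8 had 49.7, 58.2 and 49.9 FPKM in the knockout libraries, against 49.0, 49.4 and 52.0 FPKM in the wild-type libraries. Apart from knockout replicate 2 these values lie within a narrow band, and the 95% interval of the difference, -0.15 to 0.28 on the log2 scale around 0.06, was the narrowest of the tested members after that of Fgg. Krt18 had 4.67, 9.60 and 6.04 FPKM in the knockout libraries, against 5.89, 6.77 and 8.82 FPKM in the wild-type libraries. Its lowest and its highest library were both knockout, and its difference was -0.10 with an interval of -0.63 to 0.42. Leaving out knockout replicate 1 turned that sign, to 0.10, as did leaving out wild-type replicate 3, to 0.04, and Krt8 stood at -0.01 without knockout replicate 2 (limma adjusted p = 0.998 for both genes with all libraries).

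Both keratin genes lie on chromosome 15, Krt8 from 101996711 to 102004342 and Krt18 from 102028216 to 102032026 in GRCm38.p6, with 23873 bases between them. Per length, Krt8 stood at 10.6, 6.06 and 8.27 times Krt18 in the knockout libraries, against 8.32, 7.30 and 5.90 times in the wild-type libraries. The ratio was lowest in wild-type replicate 3 and knockout replicate 2, and the groups overlapped (exact two-sided permutation p = 0.5).

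**Figure D2:**
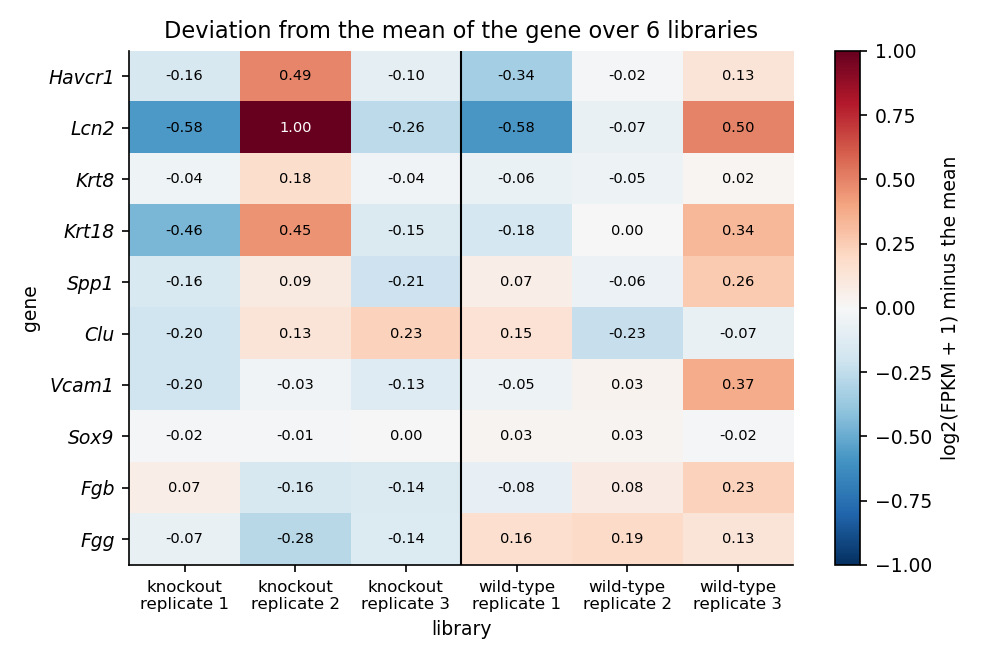
Each cell gives log2(FPKM + 1) of a gene (rows) in a library (columns, knockout left of the line and wild-type right of it) minus the mean of that gene over the 6 libraries, with red above and blue below the mean. Lcn2 reaches 1.00 in knockout replicate 2 and 0.50 in wild-type replicate 3, while Fgg is below its mean in the 3 knockout libraries and above it in the 3 wild-type libraries.

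Vcam1 had 1.96, 2.32 and 2.11 FPKM in the knockout libraries, against 2.28, 2.48 and 3.40 FPKM in the wild-type libraries. Knockout replicate 2 lay just above wild-type replicate 1, so the groups overlapped by that pair, and wild-type replicate 3 was the highest. The mean was 2.13 ± 0.182 FPKM in knockout and 2.72 ± 0.597 FPKM in wild-type kidney (SD, n = 3 each), a difference of -0.24 on the log2 scale with an interval of -0.53 to 0.05 (limma adjusted p = 0.973). Endothelium also makes Vcam1. All 13 tested of 14 endothelial markers had a log2 fold change below 0, beside 64.9% of all tested genes, with a median of -0.354. None was called (smallest limma adjusted p = 0.914), and all 13 were highest in wild-type replicate 3, as were 30.2% of tested genes. The 10 tested fibroblast and mesangial and the 8 tested podocyte and parietal markers were also all below 0. The endothelial markers summed to 123 to 161 FPKM in knockout and 164 to 224 FPKM in wild-type libraries, none being at 0. The part of endothelium in the Vcam1 values was not tested.

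Sox9 had the lowest level of the members. It had 0.124, 0.131 and 0.138 FPKM in the knockout libraries, against 0.164, 0.164 and 0.128 FPKM in the wild-type libraries. The knockout values sit between the lowest wild-type library, replicate 3, and the other two, except that knockout replicate 1 is lower still. Sox9 ranked 16086 of the 34714 genes by mean level, and the exact two-sided permutation test gave p = 0.3.

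Fgg, the fibrinogen gamma chain gene (chromosome 3, 83007724 to 83015056), had 3.74, 3.12 and 3.54 FPKM in the knockout libraries, against 4.59, 4.70 and 4.45 FPKM in the wild-type libraries. The highest knockout library was below the lowest wild-type library, and each group was tight. The mean was 3.47 ± 0.315 FPKM in knockout and 4.58 ± 0.125 FPKM in wild-type kidney (SD, n = 3 each). The knockout mean was thus 0.756 of the wild-type mean. On the log2 scale this was -0.32 with a standard error of 0.0888 and an interval of -0.53 to -0.12, and the unadjusted limma p of 0.00637 ranked 69 of the 12174 genes. It did not pass over all genes (adjusted p = 0.866), and the exact permutation test gave p = 0.1, the smallest that 3 against 3 allows. All 3 knockout values lay under all wild-type values in 8.57% of tested genes and above them in 2.01%, so 1 such member of 10 is near the background share. The count was 3 with library sums equalised, as Krt8 lay above, like 3.64% of tested genes, and Vcam1 joined Fgg below, like 6.34%. It was also 3 without knockout replicate 2, where Spp1 and Vcam1 joined Fgg and 23.9% of tested genes lay below. Without wild-type replicate 1 it was 3 again, as Vcam1 and Fgb joined Fgg, beside 13.9% of genes. Without wild-type replicate 3 it was 3 with Sox9 and Fgg below, beside 14.5% of genes, and Krt8 above, beside 4.05%. Without knockout replicate 1 it was 2, with Fgb, beside 12.7% of genes.

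Fgb, the beta chain gene (chromosome 3, 83042246 to 83049863), lies 27189 bases from Fgg with Fga, the alpha chain gene, between them. Fgb had 0.869, 0.594 and 0.615 FPKM in the knockout libraries, against 0.688, 0.889 and 1.09 FPKM in the wild-type libraries. A pair of knockout libraries lay below all wild-type values, and knockout replicate 1 lay among them (exact two-sided permutation p = 0.2). Fga had 6.62, 8.97 and 7.39 FPKM in the knockout libraries, against 7.91, 6.55 and 9.47 FPKM in the wild-type libraries. In contrast to Fgg, Fga was high in knockout replicate 2, where Fgg and Fgb had their lowest values. The level of Fga over that of Fgg was 2.24 ± 0.569 in knockout and 1.75 ± 0.369 in wild-type libraries (SD, n = 3 each), which an exact two-sided permutation test did not separate (p = 0.3).

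Fgg overlaps Gm30097, a long noncoding RNA gene, by 692 bases at its start. With strand use in counting not given in the sources used here, reads of the shared bases cannot be told apart. Gm30097 had 0.741, 0.857 and 0.872 FPKM in the knockout libraries, against 1.54, 0.929 and 0.956 FPKM in the wild-type libraries. Its knockout values also lay below its wild-type values, like those of 6.78% of genes with no filter. Fibrinogen is mainly a liver product. Of the 14 hepatocyte markers listed, Tat and Ahsg were the 2 at 0 in every library. Alb was at 1.83 to 2.62 FPKM in knockout and 1.43 to 2.17 FPKM in wild-type libraries. Serpina1a was at 13.3 to 29.6 FPKM in knockout and 18.8 to 33.8 FPKM in wild-type libraries. The 14 hepatocyte markers, a list that includes Fga, summed to 149 to 194 FPKM in knockout and 144 to 230 FPKM in wild-type libraries. The largest part of that sum was Ttr, at 90.1 to 103 FPKM in knockout and 76.7 to 128 FPKM in wild-type libraries.

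**Figure D3:**
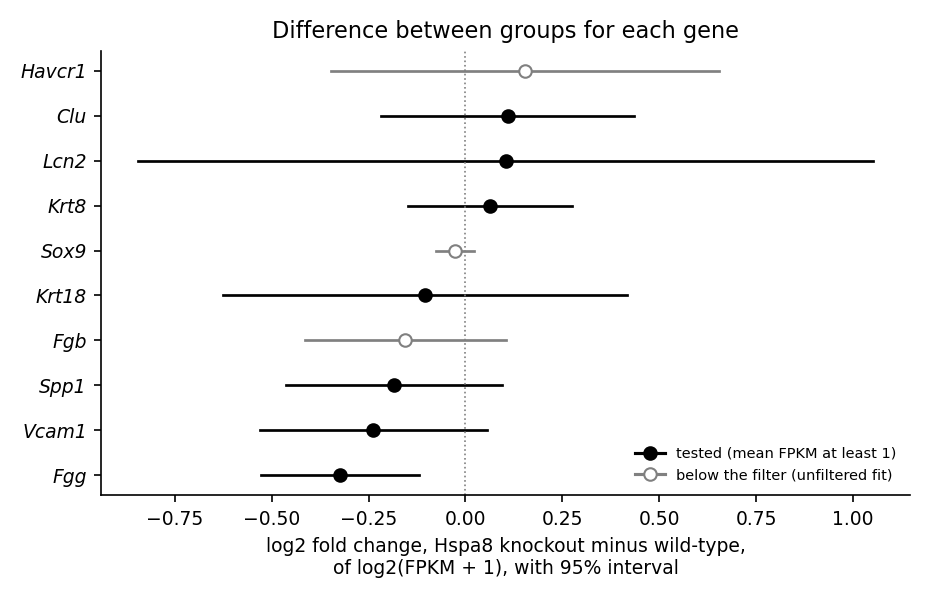
Log2 fold change of each gene (rows), knockout minus wild-type on log2(FPKM + 1), with its 95% interval from limma. Filled points are the 7 tested genes and open points the 3 below the test limit, taken from a fit with no filter. The interval of Fgg, -0.53 to -0.12, lies below 0 before adjustment for the number of genes, and those of the other 9 include 0.

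Over all tested genes limma called 0 of 12174 at an adjusted p of 0.05, which is 0% in either direction, and 0 of the 7 tested members. At an unadjusted p under 0.05 there were 629 genes (5.17%) and 1 member, Fgg. A robust variance model also called 0 genes. Log2 fold changes were positive for 3 and negative for 4 of the 7 tested members. Their median was -0.105, beside a median of -0.0399 and 64.9% of genes below 0 over all tested genes. The median of the members was above 0 without knockout replicate 1 (0.0977) or wild-type replicate 3 (0.0365) and was -0.275 without knockout replicate 2.

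Several members were high in the same libraries of both genotypes. Knockout replicate 2 and wild-type replicate 3 were the 2 highest libraries for Lcn2, Krt8, Krt18 and Spp1, which is 4 of the 7 tested members, and for Havcr1 below the test limit. Among all tested genes 22.7% had these libraries on top. Neither fibrinogen gene had knockout replicate 2 on top: Fgb and Fgg were lowest there. The lowest Lcn2 and Havcr1 values were those of wild-type replicate 1 and knockout replicate 1.

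Several markers of the inner medulla, the thin limb and the urothelium were also highest in these libraries. Slc14a2, the urea transporter of thin limb and inner medullary collecting duct, had 3.13, 30.0 and 3.58 FPKM in the knockout libraries, against 5.53, 11.4 and 16.1 FPKM in the wild-type libraries. Cryab, a small heat shock protein gene abundant in the medulla, had 36.0, 94.5 and 45.7 FPKM in the knockout libraries, against 40.7, 54.5 and 92.8 FPKM in the wild-type libraries. Both were highest in knockout replicate 2, and wild-type replicate 3 followed. Of the 9 tested of 10 thin limb markers 7 had these libraries on top, beside 22.7% of all tested genes. Cldn4 and Akr1b3 did not, and among the wild-type libraries both were lowest in replicate 3. The list summed to 304, 517 and 378 FPKM in the knockout libraries, against 360, 392 and 450 FPKM in the wild-type libraries. Most of each sum was Aqp1, which is also in the list of mature proximal tubule genes. Aqp1 had 215, 308 and 268 FPKM in the knockout libraries, against 252, 262 and 275 FPKM in the wild-type libraries.

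Urothelium, which lines the renal pelvis, makes Krt8 and Krt18 as well. Its marker Upk1a, a uroplakin gene, had 0.684, 2.02 and 0.438 FPKM in the knockout libraries, against 0.461, 0.876 and 1.30 FPKM in the wild-type libraries. None of the 10 urothelial markers reached a mean of 1 FPKM and none was at 0 in all libraries. They summed to 2.26, 10.3 and 1.47 FPKM in the knockout libraries, against 2.30, 3.41 and 7.50 FPKM in the wild-type libraries. The 12 principal cell markers, a list that includes Krt18, summed to 169, 287 and 242 FPKM in the knockout libraries and 217, 212 and 242 FPKM in the wild-type libraries. The part of these regions in the Lcn2, Havcr1 and Krt18 values was not tested.

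**Figure D4:**
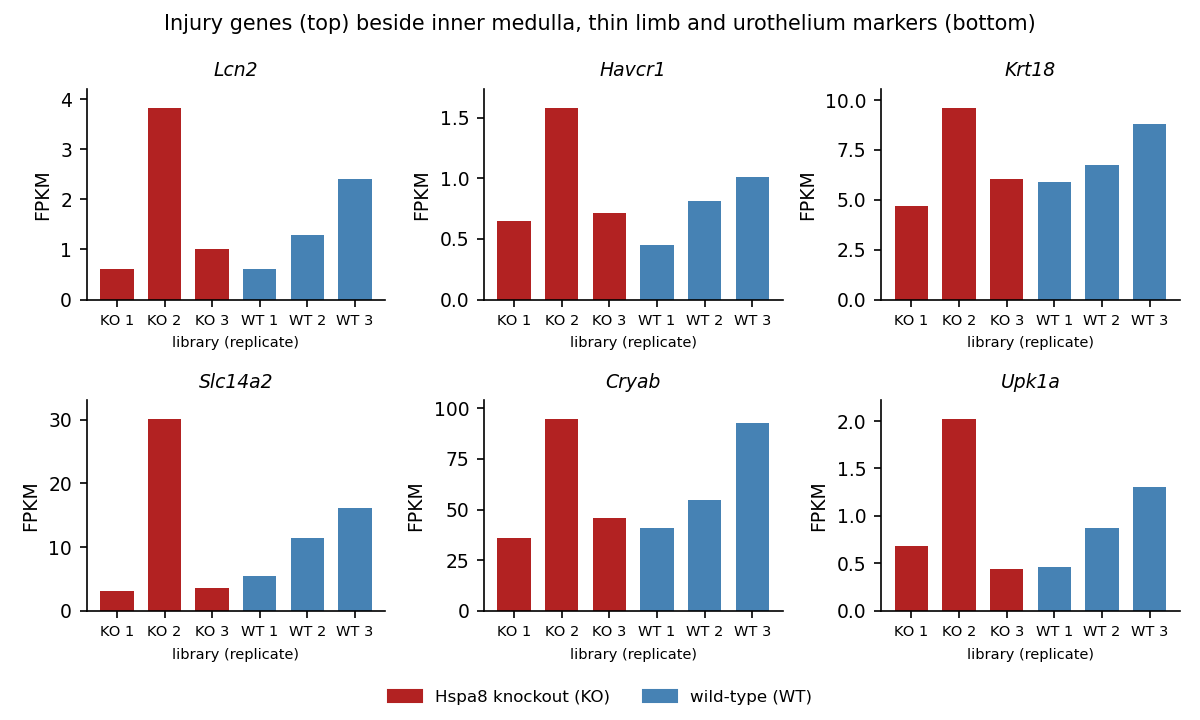
FPKM of Lcn2, Havcr1 and Krt18 (top) and of the markers Slc14a2, Cryab and Upk1a (bottom) in knockout (KO, red) and wild-type (WT, blue) libraries, a bar for each library. In all 6 panels the highest bar is knockout replicate 2 and the next is wild-type replicate 3, for Slc14a2 at 30.0 and 16.1 FPKM.

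Further markers of other cells differed by library too. The 17 leukocyte and macrophage markers summed to 55.7, 89.1 and 49.98 FPKM in the knockout libraries, against 64.2, 61.7 and 82.5 FPKM in the wild-type libraries. Ly6g, a neutrophil marker, was at 0 in every library. Ptprc, the leukocyte antigen CD45, had 1.79 ± 0.123 FPKM in knockout and 2.38 ± 0.180 FPKM in wild-type kidney (SD, n = 3 each; limma adjusted p = 0.914). Cd68, a macrophage lysosomal protein gene, was highest in knockout replicate 2 at 3.13 FPKM, and wild-type replicate 3 followed at 2.32 FPKM. Of the 7 tested of these 17 markers 6 had those libraries on top, Cd68 among them and Ptprc not. The share over all tested genes was 22.7%. The 11 fibroblast and mesangial markers summed to 59.9 to 74.0 FPKM in knockout and 71.7 to 111 FPKM in wild-type libraries, and the 9 podocyte and parietal markers to 93.2 to 117 FPKM in knockout and 110 to 155 FPKM in wild-type libraries. The 8 red cell markers summed to 422, 78.0 and 557 FPKM in the knockout libraries and to 52.1 to 60.0 FPKM in wild-type libraries. Their part in the values of the members was not tested either.

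Other genes of tubular injury and failed repair were not called either. Of 43 listed genes 35 were tested and 0 were called in either direction, like all 12174 tested genes. Of the 35, 24 had a log2 fold change below 0, with a median of -0.168. The smallest p were those of Cxcl10, a chemokine for T cells, at -0.32, of Ccn2, a matrix growth factor, at -0.68 and of Hmox1, the haem oxygenase of oxidative stress, at -0.27 (limma adjusted p = 0.866, 0.866 and 0.960). Ccn2 had 22.7 ± 3.01 FPKM in knockout and 37.9 ± 11.4 FPKM in wild-type kidney (SD, n = 3 each), with no overlap of its groups. Of the 35 tested genes 3 had all knockout values below and 0 above, beside 8.57% and 2.01% of all tested genes. Knockout replicate 2 and wild-type replicate 3 were on top for 15 of the 35, beside 22.7% of all tested genes. Among the 15 were the keratins Krt7 and Krt19, the annexins Anxa1, Anxa2 and Anxa3 and the calcium-binding protein genes S100a6 and S100a11. S100a6 had 4.79, 11.1 and 5.20 FPKM in the knockout libraries, against 6.71, 7.44 and 11.8 FPKM in the wild-type libraries. Under the test limit Timp1 had 0.424, 0.495 and 0.395 FPKM in knockout, all above its 0.119, 0.180 and 0.224 FPKM in wild-type libraries. Cd44 lay below throughout (means 0.349 and 0.549 FPKM), and the other untested genes of the list overlapped. With no filter 2.62% of genes had knockout above and 6.78% below.

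Acute-phase and STAT3 target genes, the usual companions of fibrinogen, numbered 10 tested of 18. None was called in either direction, like all 12174 tested genes. Saa1 and Saa2, serum amyloid genes that respond most strongly in the acute phase, were at 0 in every library. Lbp, which encodes the lipopolysaccharide-binding protein, had 1.25 ± 0.0689 FPKM in knockout and 1.73 ± 0.437 FPKM in wild-type kidney (SD, n = 3 each; limma log2 fold change -0.27, adjusted p = 0.973). It was the 1 of the 10 with groups apart, knockout below, beside 8.57% of all tested genes. Osmr, the oncostatin M receptor gene, and Cp, the ceruloplasmin gene, were at -0.14 and -0.11, and the median of the list was -0.0566.

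Receptors and partners of the members were tested for 13 of 20 genes, and 0 were called, as over all genes, with a median of -0.0468. Itga8, an integrin chain that binds osteopontin, had 1.76, 2.27 and 1.65 FPKM in the knockout libraries, against 2.49, 2.84 and 3.49 FPKM in the wild-type libraries. Its groups did not overlap, and its log2 fold change was -0.44 (limma adjusted p = 0.866). Itga9, whose integrin binds both osteopontin and VCAM1, was at -0.27 and Msn, the membrane-cytoskeleton linker moesin, at -0.17, again with groups that did not overlap. With Itgb5 these were the 4 of 13 tested genes with knockout below, beside 8.57% of all tested genes. Simple epithelial keratins and desmosome genes were tested for 9 of 14, and 0 were called, as over all genes, with a median of 0.0025. Krt80 was at -0.17, the desmoplakin gene Dsp at -0.15 and the plakophilin family gene Pkp4 at 0.09.

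The mature tubule programs, which fall when tubule cells dedifferentiate, held 0 called genes, as did the whole set of tested genes. All 28 proximal tubule genes were tested, 13 being above 0 and 15 below with a median of -0.0122. Slc22a6, the organic anion transporter OAT1, had 296 ± 29.5 FPKM in knockout and 244 ± 31.3 FPKM in wild-type kidney (SD, n = 3 each), a log2 fold change of 0.28, while the glucose transporter gene Slc5a2 was at -0.26 and the phosphate transporter gene Slc34a3 at -0.30 (limma adjusted p = 0.971, 0.995 and 0.998). The 14 thick limb and distal genes, all tested, had a median of -0.0181, with the claudin gene Cldn10 at -0.14, the prostaglandin receptor gene Ptger3 at 0.36 and the potassium channel gene Kcnj1 at -0.13. Cell cycle genes, which mark regenerating tubule, reached the test limit for 5 of 15 members, with 0 called and a median of -0.032. Rrm2, the nucleotide reductase subunit, was at -0.19, Pcna, the replication clamp, at -0.06 and Mcm5, a replicative helicase subunit, at -0.03. Rrm2 and Pcna were the 2 tested genes with groups apart, knockout below, beside 8.57% of all tested genes. Under the test limit Mki67 (means 0.403 in knockout, 0.608 in wild-type), Ccna2, Ccnb2, Aurkb and Foxm1 also had groups apart, knockout below. Top2a, Ccnb1, Cdk1, Birc5 and Cenpf overlapped. With no filter 6.78% of genes had knockout below.

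Immediate early genes, which respond within minutes to stress and to tissue handling, varied widely within both groups. The 12 genes, all tested with 0 called and a median of 0.0711, summed to 93.1, 362 and 428 FPKM in the knockout libraries, against 79.9, 288 and 516 FPKM in the wild-type libraries. Replicate 1 was the low library in both groups, as it was for Lcn2 and Havcr1. Egr1 had 6.11, 40.1 and 37.7 FPKM in the knockout libraries, against 4.13, 29.8 and 43.2 FPKM in the wild-type libraries, and the log2 fold changes of Fosb, Egr1 and Ier3 were 0.69, 0.23 and 0.12. Their part in the Lcn2 and Havcr1 values was not tested.

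The mean pattern of the 7 tested members over the 6 libraries was compared with that of 1897 other genes with a mean of at least 5 FPKM and a range of at least 0.5 on the log2 scale. The 5 genes most like it by Pearson correlation over the 6 libraries were Csf1r (0.991), Mrps6 (0.986), Pou3f3 (0.985), Slc22a7 (0.985) and Isyna1 (0.984). With so few libraries a high value is common, and 110 of the 1897 genes exceeded 0.9. Lcn2 weighed most in the mean pattern, lying 0.997 above its own mean in knockout replicate 2. Not all members followed it: Vcam1 and Fgg were below their means in that library (-0.032 and -0.276). Clu was below its mean in wild-type replicate 3 (-0.074). Csf1r, the receptor for macrophage colony-stimulating factor, had 12.1, 20.0 and 13.7 FPKM in the knockout libraries, against 14.2, 14.9 and 18.5 FPKM in the wild-type libraries, and thus shared the high values of knockout replicate 2 and wild-type replicate 3.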

How the data were processed

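The values are FPKM for 6 libraries in 1 table the authors deposited, numbers already divided by transcript length and mapped total. Per the labels' protocols RNA was column-purified and libraries were made with a SMARTer mRNA kit, and per the submitters' processing notes the builds are GRCm38 and mm10. Names of the aligner and quantifier and the read type were not given in the sources used here. Columns named A8 were matched to the HSPA8KO titles of the same number. Among genes under 0.1 FPKM no single ratio of 2 libraries (log2 bins of 0.005) was shared by more than 0.625%, so no whole reads were recovered and no interval that needs depth is given.

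log2(FPKM + 1) of the 12174 genes with a mean of at least 1 FPKM was fitted with limma 3.58.1 (R 4.3.3), knockout against wild-type, with a variance trend, two-sided, with Benjamini-Hochberg adjustment over these genes at 0.05. Fold changes on this scale understate low genes. Untested members have values and exact permutation tests (scipy 1.17.1). The members, the 17 gene lists and the alternatives were chosen with earlier results of these data known. The named genes are the members, the 3 genes of smallest p in each pathway list (or those called), up to 2 leading markers of each cell type list and the 5 most alike genes. Cryab, S100a6, Fga, Gm30097, Saa1, Saa2, Ly6g, Aqp1, Akr1b3, Ttr, Serpina1a, the liver markers at 0, the top-library lists and the promoter motifs were chosen after values or sequences were seen. So were Itgb5 and the cell cycle and injury genes named under the test limit. Coordinates are 1-based, from RefSeq on GRCm38.p6, to which all 34714 symbols matched.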

Additional observations from a re-analysis of the deposited data

How the results depend on the processing

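The counts of genes, members and pathway list genes called, the members with groups apart, and the median and fold changes of the tested members were recomputed under 16 alternatives in scaling, filter, pseudocount, variance model, replicate block and left-out libraries. Lcn2 was tested in 14 of them and Fgg and Vcam1 in 15. Permutation tests, ratios, marker sums, list medians, library rankings and likeness were not recomputed. The count of members called was 0 in all 16, as was that of the pathway list genes. The count over all genes ran from 0 to 5 with 1 library left out. It was 5, all globin genes, without knockout replicate 2 and again without knockout replicate 2 and wild-type replicate 3 together, and 0 otherwise. Members with groups apart numbered 1 with all libraries. With library sums equalised they numbered 3 (Krt8 above, beside 3.64% of tested genes, Vcam1 and Fgg below, beside 6.34%). They numbered 2 with library medians equalised (Krt8 above, beside 4.9%, Fgg below, beside 5.09%) and 1 to 3 with 1 library left out. Without both of those libraries they numbered 5 (Krt8 above, beside 6.55% of tested genes, Spp1, Vcam1, Sox9 and Fgg below, beside 31.5%). Fgg was among them in every alternative, but only the rescalings by sums, medians or quantiles could have changed that. The other alternatives kept the values or only left libraries out, and groups already apart then stay apart. The log2 fold change of Fgg ran from -0.40 to -0.27 and its limma adjusted p from 0.667 to 1.00. The median of the tested members ran from -0.275 to 0.0977 with 1 library left out, and was above 0 without knockout replicate 1 or wild-type replicate 3. With 1 library left out the log2 fold change of Krt18 ran from -0.35 to 0.10, of Krt8 from -0.0094 to 0.10, of Lcn2 from -0.37 to 0.42, of Clu from 0.02 to 0.24, of Spp1 from -0.27 to -0.10 and of Vcam1 from -0.32 to -0.11. Those of Clu, Spp1, Vcam1 and Fgg kept their sign in every alternative that tested them.

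For libraries sharing a replicate number, Pearson r of deviations from group means across genes was 0.307, -0.215 and -0.321 for numbers 1, 2 and 3. The highest r, 0.550, was that of knockout replicate 2 with wild-type replicate 3. Deviations within a group of 3 add up to 0, so these values cannot decide whether the numbers pair the samples. With the replicate block 0 genes and 0 members were called. Havcr1, Lcn2, Fgb and Sox9 lie near or under 1 FPKM with unknown depth, so a change in them may not be detectable here. Hspa8, named as knocked out, was not called either, so the lack of a call does not show that a gene is unchanged.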
